A study of Homo sapiens with 10 samples.

Results

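Tenascin C (TNC) and other matricellular genes were followed across the 10 libraries of a study of IL1β and JNK inhibitors in 12Z cells. The genes were chosen by name, with earlier results of these data known, as secreted modulators of the extracellular matrix: TNC, THBS1, THBS2, SPON1, SPON2, SPP1, POSTN and SPARC. They are 8 of the 62750 gene IDs in the count table, and all 8 passed the filter on low counts and were among the 15740 genes tested. 12Z is an established line grown from a peritoneal endometriosis lesion and is labelled as epithelial. All groups were kept in 2% charcoal-stripped serum overnight after growth in 10% serum, and all results come from this 1 line at 1 time. Each of 5 groups held 2 libraries: 10 ng/ml IL1β for 6 h after 30 min with 1 µM CDD-2728, the same with 10 µM CDD-2728, the same with 1 µM CDD-3013, IL1β after DMSO, and DMSO vehicle without IL1β. Both compounds are described as JNK inhibitors, and no group received a compound without IL1β.

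Matricellular proteins are secreted into the matrix but mainly signal to cells rather than bear load. They bind integrins, syndecans, CD44 and other surface receptors, change adhesion and migration, and are typically induced in inflammation, wound repair and fibrosis. JNK is a stress-activated kinase that phosphorylates JUN, a subunit of the transcription factor AP-1, and IL1β activates both JNK and NF-κB. In endometriosis, matrix remodelling and adhesion to the peritoneum are part of lesion growth.

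Promoter sequences are given for TNC, which rose most with IL1β, for THBS1, which moved the other way under the inhibitors, and for POSTN, which fell with IL1β. They are RefSeq promoters on GRCh38.p14, from 250 bases before to 50 bases after the start used there, 5′ to 3′ on the gene's strand. For TNC and POSTN that start lies inside the gene coordinates given below, and distances refer to the start of the promoter entry. TNC lies at chr9:115118108-115118407 (minus strand), THBS1 at chr15:39580829-39581128 (plus strand) and POSTN at chr13:37598719-37599018 (minus strand). Capitals mark every match, on either strand, to the letters TGANTCA (an AP-1 element), TGACGTCA (a cAMP response element), GGGNNTTCC (a κB-like element) or TATAA; in POSTN, neighbouring TATAA matches on opposite strands overlap.
TNC: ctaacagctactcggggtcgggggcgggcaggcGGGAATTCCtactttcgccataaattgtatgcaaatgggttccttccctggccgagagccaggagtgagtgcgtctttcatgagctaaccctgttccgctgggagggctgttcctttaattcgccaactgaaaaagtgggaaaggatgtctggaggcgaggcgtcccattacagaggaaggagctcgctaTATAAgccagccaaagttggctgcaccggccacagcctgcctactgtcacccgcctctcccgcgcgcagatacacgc
THBS1: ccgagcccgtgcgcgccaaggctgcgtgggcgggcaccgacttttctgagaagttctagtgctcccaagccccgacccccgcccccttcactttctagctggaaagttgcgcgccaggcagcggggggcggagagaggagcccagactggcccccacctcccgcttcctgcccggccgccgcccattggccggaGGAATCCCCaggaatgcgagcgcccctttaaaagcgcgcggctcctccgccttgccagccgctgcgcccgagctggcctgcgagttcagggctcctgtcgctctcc
POSTN: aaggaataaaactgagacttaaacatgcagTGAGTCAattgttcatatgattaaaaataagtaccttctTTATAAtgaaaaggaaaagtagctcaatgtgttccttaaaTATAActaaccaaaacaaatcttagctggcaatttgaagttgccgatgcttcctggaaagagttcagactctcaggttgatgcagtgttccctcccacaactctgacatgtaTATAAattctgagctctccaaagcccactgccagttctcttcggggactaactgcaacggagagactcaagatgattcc
In the TNC promoter a κB-like match starts 217 bases before the start and a TATAA match 27 bases before it. THBS1 holds a κB-like match on the other strand, 56 bases before its start. The single AP-1 match among the members with an entry is in POSTN, 220 bases before the start. Of 35116 promoters of this length, 7.71% hold TGANTCA, 1.85% TGACGTCA, 6.58% GGGNNTTCC and 20.4% TATAA. The table had entries for 7 of the 8 genes (all but SPON1), and a match of letters is a description, not evidence of binding.

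Levels are CPM (counts relative to the size of the library after TMM scaling), means are given ± SD (n = 2), log2 fold changes ± SE, and a gene is called when its adjusted p from edgeR's quasi-likelihood test over all 15740 genes is under 0.05. Libraries held 16312600 to 19479416 counts, with 3.19% to 3.71% from the mitochondrial genome, and Pearson correlations between the libraries of a group were 0.9901 to 0.9925. Whether the 2 libraries of a group came from different cultures is not stated, so the p-values measure a spread that may be technical. The epithelial keratin KRT8 averaged 6772 CPM over the libraries, but the epithelial adhesion molecule EPCAM only 0.0729 CPM; COL1A1, a fibrillar collagen of mesenchymal cells, averaged 2800.1 CPM and the mesothelial marker LRRN4 464 CPM. Markers of 1 list differed widely: among mesenchymal markers COL3A1 averaged 2161.6 CPM, COL1A2 22.5 CPM and PDGFRA 4.78 CPM. The T cell marker CD3E was at 0 in every library. Other immune markers were detected, with means of 18.9 CPM for CD14, 2.70 CPM for ITGAM and 0.19 CPM for PTPRC.

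Per kilobase of exon (RPKM), the genes covered a wide range of levels. Averaged over the 10 libraries, SPARC had 682 RPKM, THBS2 208 RPKM, THBS1 48.3 RPKM, TNC 26.8 RPKM, POSTN 23.6 RPKM, SPP1 2.13 RPKM, SPON1 0.218 RPKM and SPON2 0.112 RPKM. SPARC (569 to 729 RPKM) and THBS2 (166 to 266 RPKM) kept their places in every library. TNC spanned 8.04 to 64.7 RPKM, so its range met those of its neighbours THBS1 (32.1 to 65.5 RPKM) and POSTN (20.5 to 28.6 RPKM). With IL1β alone TNC stood above THBS1 (61.5 ± 4.48 against 37.1 ± 0.128 RPKM), and in vehicle it stood below POSTN (8.14 ± 0.132 against 27.2 ± 2.02 RPKM). SPON1 and SPON2, at 6 to 41 and 5 to 33 reads per library, had ranges that overlapped, and their changes carry wide errors.

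**Figure D1:**
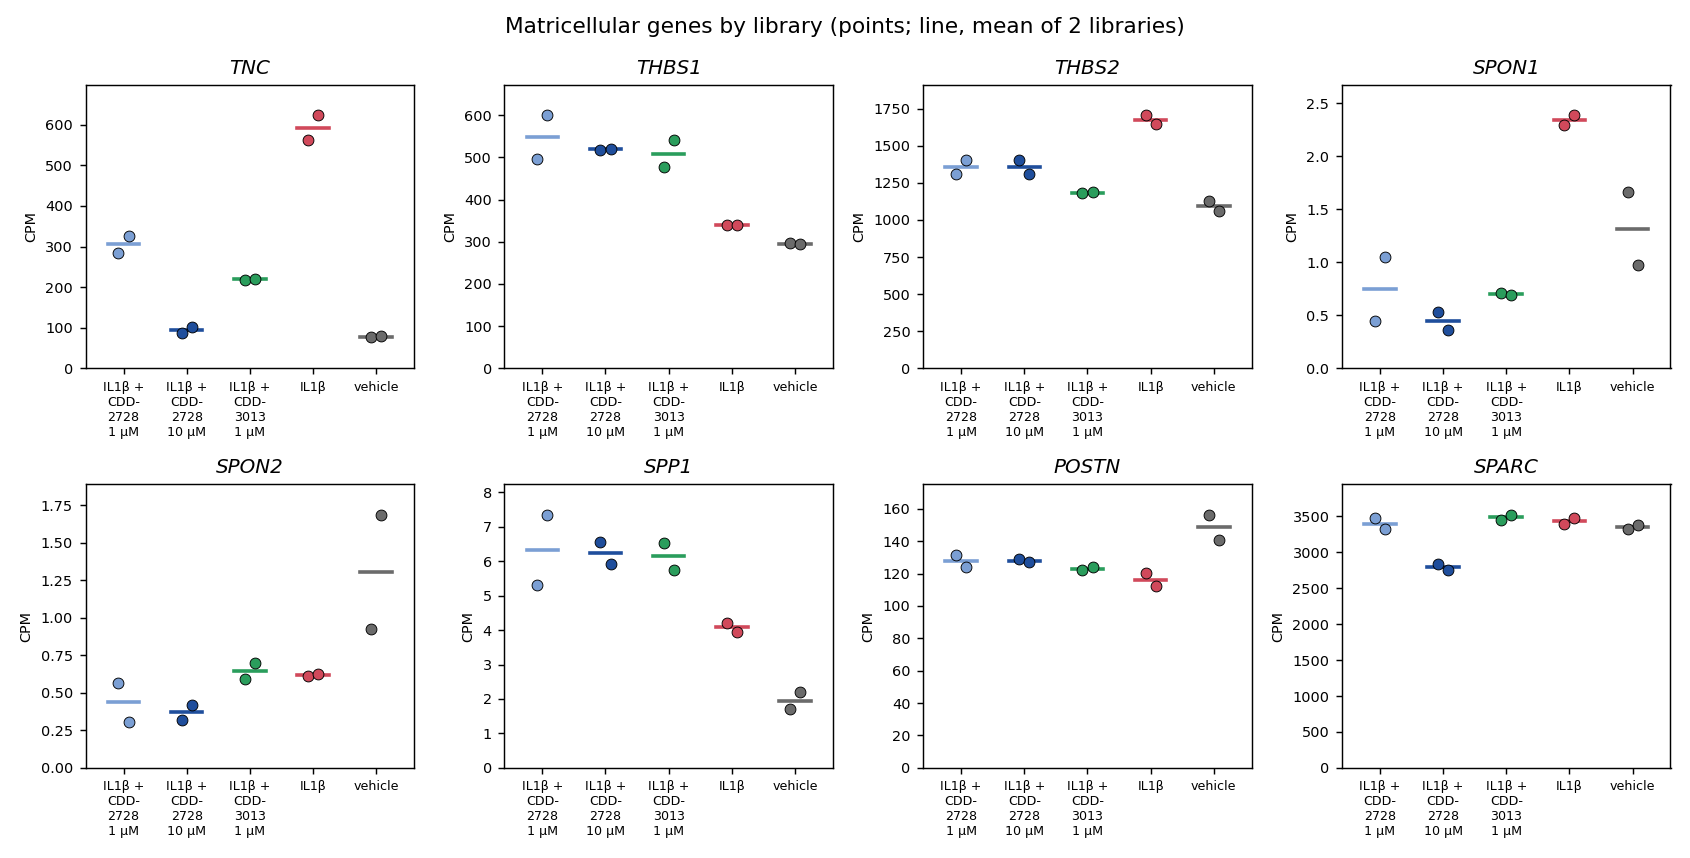
CPM of each gene in every library (points) with the mean of the 2 libraries of a group (line); every vertical axis starts at 0. TNC is highest with IL1β alone (562 and 623 CPM) and near the vehicle libraries with 10 µM CDD-2728 (87.0 and 102 CPM), while THBS1 is higher in the 6 inhibitor libraries than in the other 4.

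IL1β against vehicle asks how the cytokine changes these genes. TNC, THBS2 and SPP1 rose, POSTN fell and the other 4 were not called. Of all tested genes 32.6% were called, 17.6% higher and 15.0% lower. TNC (chr9:115019578-115118257, minus strand, GRCh38), a large glycoprotein of the provisional matrix that weakens adhesion to fibronectin, had 562 and 623 CPM with IL1β, against 77.5 and 79.3 CPM in vehicle. Both IL1β libraries were far above both vehicle libraries. The log2 change was 2.92 ± 0.08, or 7.56-fold (edgeR quasi-likelihood test, adjusted p = 4.85e-18), the 143rd largest of the 2769 rises called. It lay above the 99th percentile of all tested genes (2.82).

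THBS2 (chr6:169215780-169254044, minus strand), an antiangiogenic thrombospondin that takes part in collagen fibril assembly, had 1706.3 and 1648.2 CPM with IL1β, against 1125.5 and 1061.4 CPM in vehicle. The groups did not overlap, and the log2 change was 0.62 ± 0.08 (edgeR, adjusted p = 1.71e-07). Its relative THBS1 (chr15:39581079-39599466, plus strand), which binds CD36 and CD47 and can activate latent TGF-β, had 341 and 339 CPM with IL1β, against 297 and 294 CPM in vehicle. These did not overlap either, but the log2 difference of 0.20 ± 0.08 missed the threshold (edgeR, adjusted p = 0.0554). It passed with relative log expression factors, with no filter and in a fit of the 4 libraries compared. IL1β and vehicle libraries did not overlap for any of the listed genes, called or not, so non-overlap alone does not mark a change. The share of all tested genes without overlap is not given. SPP1 (chr4:87975650-87983426, plus strand), or osteopontin, a ligand of CD44 and integrins, had 4.20 and 3.96 CPM with IL1β, against 1.71 and 2.20 CPM in vehicle. It rose by 1.07 ± 0.24 on the log2 scale (edgeR, adjusted p = 0.00136), on 75 and 63 reads with IL1β, against 37 and 43 in vehicle.

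POSTN (chr13:37562583-37598844, minus strand), or periostin, a TGF-β-induced integrin ligand that supports collagen cross-linking, had 120.2 and 112 CPM with IL1β, against 156 and 141 CPM in vehicle. Both IL1β libraries were below both vehicle libraries, with a log2 change of -0.35 ± 0.08 (edgeR, adjusted p = 0.000373). SPARC (chr5:151661096-151687165, minus strand), or osteonectin, a collagen-binding protein and the most abundant of the genes, had 3400 and 3481.7 CPM with IL1β, against 3330 and 3385.5 CPM in vehicle, a log2 difference of 0.04 ± 0.08 with a 95% interval of -0.14 to 0.21 (-0.14 with library totals as the scale). The spondins SPON1 (chr11:13962689-14267884, plus strand) and SPON2 (chr4:1166932-1208962, minus strand), secreted relatives of the thrombospondins, differed by 0.82 ± 0.37 and -1.05 ± 0.48 and were not called. SPON2 passed the threshold only with library totals, at -1.22. Without the first vehicle library the differences of SPON1 and SPON2 were 1.27 and -1.42, and without the second 0.50 and -0.55.

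The inhibitor arms against IL1β alone ask which of these levels move when a compound described as a JNK inhibitor is present during IL1β exposure. TNC, THBS2 and SPON1 fell in all 3 arms and THBS1 rose in all 3. With 1 µM CDD-2728, 4 of the 8 genes were called (1 higher and 3 lower), beside 4.59% of all tested genes (2.03% higher and 2.57% lower). Without either IL1β library or without the first library of that arm, 2 of the 8 were called. With 10 µM CDD-2728, 6 of 8 were called (2 higher and 4 lower), beside 31.5% (15.6% higher and 15.9% lower), and with 1 µM CDD-3013, 5 of 8 (2 higher and 3 lower), beside 36.4% (19.0% higher and 17.3% lower). The 3 comparisons share the same 2 IL1β libraries, so they are not independent of each other. Because the genes were chosen with earlier results of these data known, the counts are descriptions and do not test enrichment. In bulk RNA, fewer cells expressing a gene and less RNA per cell cannot be told apart.

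TNC had 285 and 327 CPM with 1 µM CDD-2728, against 562 and 623 CPM with IL1β alone. With 10 µM CDD-2728 it had 87.0 and 102 CPM, and with CDD-3013 218 and 219.8 CPM. No library of an inhibitor arm reached the IL1β libraries. The log2 changes against IL1β were -0.95 ± 0.08 with 1 µM CDD-2728 (edgeR, adjusted p = 6.76e-08), -2.65 ± 0.08 with 10 µM CDD-2728 (adjusted p = 6.22e-16) and -1.44 ± 0.08 with CDD-3013 (adjusted p = 2.96e-11). By size these ranked 27th of 404 falls, 20th of 2504 and 128th of 2729. Each fall was called without any one of the libraries compared.

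As a share of the log2 rise under IL1β, 67.3% of the TNC response was left with 1 µM CDD-2728, 9.25% with 10 µM CDD-2728 and 50.8% with CDD-3013. As a share of the excess in CPM over vehicle, these were 44.3%, 3.15% and 27.3% in the same order. Leaving out each library in turn gave 5.18% to 13.3% of the log2 rise and 1.68% to 4.62% of the CPM excess with 10 µM CDD-2728, 64.2% to 70.6% and 40.2% to 48.3% with 1 µM, and 50.1% to 52.3% and 25.8% to 29.1% with CDD-3013. The shares are ratios of fitted or mean levels and rest on the same IL1β and vehicle libraries. TNC overlaps DEC1 on the opposite strand, to which 18 reads were assigned in all libraries together, against 44046 to TNC, and whether strand was used in counting is not given in the sources used here.

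THBS1 moved the other way. It had 496 and 599.8 CPM with 1 µM CDD-2728, 519 and 520.1 CPM with 10 µM CDD-2728 and 477 and 541 CPM with CDD-3013, against 341 and 339 CPM with IL1β alone. Every inhibitor library was above both IL1β libraries. The log2 changes were 0.69 ± 0.08 (edgeR, adjusted p = 7.29e-06), 0.61 ± 0.08 (adjusted p = 3.22e-06) and 0.58 ± 0.08 (adjusted p = 1.06e-05), between 1.5- and 1.61-fold, and each was called without any one of the libraries compared. FSIP1 overlaps THBS1 on the opposite strand and was assigned 195 reads in all libraries together, against 77148 for THBS1.

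THBS2 had 1311.5 and 1407.1 CPM with 1 µM CDD-2728, 1402.3 and 1308.4 CPM with 10 µM CDD-2728 and 1178.8 and 1189.5 CPM with CDD-3013, against 1706.3 and 1648.2 CPM with IL1β alone. All 6 inhibitor libraries were below the IL1β libraries and above the vehicle libraries. The log2 changes against IL1β were -0.30 ± 0.08 (edgeR, adjusted p = 0.0101), -0.31 ± 0.08 (adjusted p = 0.00141) and -0.50 ± 0.08 (adjusted p = 1.06e-05). The call at 1 µM CDD-2728 was lost without the first IL1β library (-0.27), the second IL1β library (-0.32) or the first library of that arm (-0.25).

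SPON1 had 8 and 17 reads with 1 µM CDD-2728, 10 and 6 with 10 µM CDD-2728 and 12 and 11 with CDD-3013, against 41 and 38 with IL1β alone. No inhibitor library reached the reads of an IL1β library. In CPM these were 0.451 and 1.05, 0.534 and 0.359, and 0.713 and 0.696, against 2.29 and 2.39. The log2 changes were -1.65 ± 0.43 (edgeR, adjusted p = 0.0227), -2.36 ± 0.49 (adjusted p = 0.000338) and -1.72 ± 0.44 (adjusted p = 0.0028). The call at 1 µM was lost without the first IL1β library (-1.67), the second (-1.62) or the first library of the arm (-1.15). SPON1-AS1 on the opposite strand was assigned 15 reads in all libraries together, against 198 for SPON1. SPON2 was not called in any arm against IL1β, at log2 differences of -0.49 ± 0.58, -0.75 ± 0.60 and 0.05 ± 0.54 (the last is -0.03 with library totals and -0.19 with length and GC offsets).

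SPP1 had 5.30 and 7.35 CPM with 1 µM CDD-2728, 6.57 and 5.92 CPM with 10 µM CDD-2728 and 6.54 and 5.76 CPM with CDD-3013, against 4.20 and 3.96 CPM with IL1β alone. Each inhibitor library was above both IL1β libraries, which were themselves above vehicle. The log2 differences were 0.63 ± 0.21 (edgeR, adjusted p = 0.0904, not called), 0.61 ± 0.21 (adjusted p = 0.0259) and 0.59 ± 0.21 (adjusted p = 0.0299). Neither of the 2 calls held in DESeq2. The call at 10 µM was lost without any one of the 4 libraries compared (0.54 to 0.69), and that of CDD-3013 without either IL1β library (0.65 and 0.56) or the first CDD-3013 library (0.51), with library totals (0.51) and with length and GC offsets (0.51).

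POSTN was not called in any arm against IL1β, with log2 differences of 0.14 ± 0.08, 0.14 ± 0.08 and 0.08 ± 0.08 in the order 1 µM CDD-2728, 10 µM CDD-2728 and CDD-3013. It was called higher at 10 µM with library totals (0.20) and with CDD-3013 with length and GC offsets (0.22). SPARC was called with 10 µM CDD-2728 alone, where it had 2839.3 and 2751 CPM, against 3400 and 3481.7 CPM with IL1β. Both libraries of that arm were below all 8 other libraries, and the log2 change was -0.30 ± 0.08 (edgeR, adjusted p = 0.00149). With 1 µM CDD-2728 and CDD-3013 the log2 differences of SPARC were -0.02 ± 0.08 and 0.02 ± 0.08 (the second is -0.06 with library totals).

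**Figure D2:**
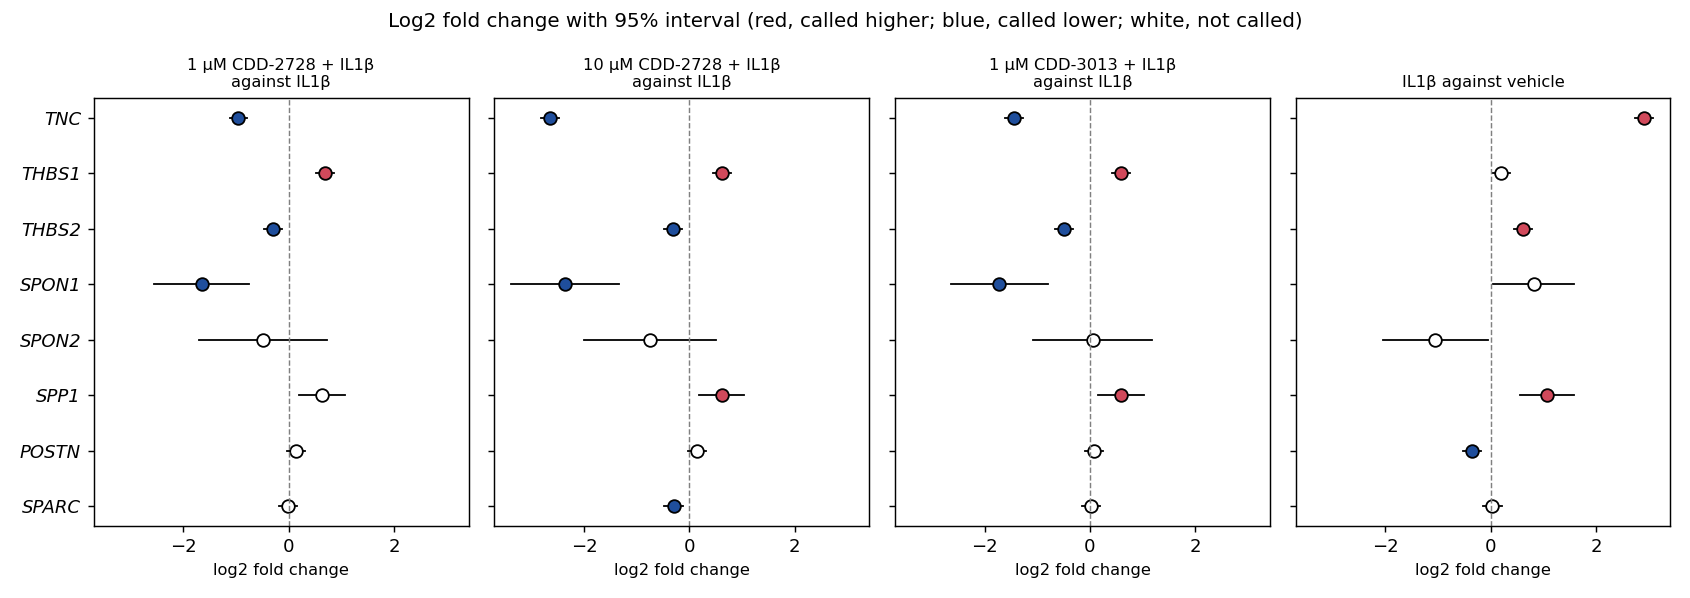
Log2 fold changes with 95% intervals for the 8 genes in each inhibitor arm against IL1β and in IL1β against vehicle; red points were called higher, blue called lower and white not called. TNC lies left of 0 in the 3 inhibitor panels and at 2.92 in the IL1β panel, and THBS1 lies near 0.6 in the inhibitor panels.

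Some lists of cell type markers moved with these arms. The summed level of the 9 mesenchymal and stromal markers was 7593 to 8089 CPM with 1 µM CDD-2728, 6512 to 6818 CPM with 10 µM CDD-2728, 7468 to 7956 CPM with CDD-3013, 7059 to 7310 CPM with IL1β and 6870 to 7155 CPM in vehicle. The 5 mesothelial markers summed to 856 to 880.5 CPM, 621 to 664 CPM, 944 to 958 CPM, 769 to 770.03 CPM and 685 to 723 CPM in the same order. The 7 epithelial markers summed to 8915 to 10663 CPM, 8127 to 8756 CPM, 12274 to 13476 CPM, 9019 to 9134 CPM and 9309 to 10080 CPM. Mesenchymal, mesothelial and epithelial sums were each lowest with 10 µM CDD-2728, the arm where SPARC fell. For the 5 endothelial markers the sums were 32.7 to 32.9 CPM, 53.6 to 60.8 CPM, 32.4 to 35.4 CPM, 22.8 to 23.7 CPM and 45.6 to 49.6 CPM, and for the 6 immune markers they lay between 16.4 and 28.0 CPM in all libraries. No marker list had all its defining members at 0; EPCAM was at 0 in both IL1β libraries and CD68 in both IL1β and both CDD-3013 libraries. The part of these shifts in the results was not tested.

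Doses and compounds were compared directly, with 1 pair of doses of CDD-2728 and 1 pair of compounds at a matched dose and time. Between 10 and 1 µM CDD-2728, 2 of the 8 genes were called, both lower at 10 µM, beside 27.1% of all tested genes (13.3% higher and 13.8% lower). TNC had 87.0 and 102 CPM at 10 µM, against 285 and 327 CPM at 1 µM, a log2 difference of -1.70 ± 0.08 (edgeR, adjusted p = 5.59e-12). SPARC had 2839.3 and 2751 CPM at 10 µM, against 3476.2 and 3320.5 CPM at 1 µM, a log2 difference of -0.28 ± 0.08 (adjusted p = 0.00328). Neither pair of groups overlapped. THBS1, by contrast, differed by -0.08 (95% interval -0.25 to 0.09) and THBS2 by -0.00414 (-0.18 to 0.17; 0.07 with library totals). POSTN differed by 0.00275 (-0.17 to 0.18) and SPP1 by -0.01 (-0.42 to 0.39; 0.06 with library totals). For the spondins the intervals were wide, -1.85 to 0.43 for SPON1 and -1.58 to 1.06 for SPON2. Effects of the size seen for TNC lie outside the intervals of THBS1, THBS2, SPP1, POSTN and, narrowly, SPON2, but inside that of SPON1.

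Between 1 µM CDD-3013 and 1 µM CDD-2728, 2 of the 8 genes were called, both lower with CDD-3013, beside 17.9% of all tested genes (9.85% higher and 8.01% lower). TNC had 218 and 219.8 CPM with CDD-3013, against 285 and 327 CPM with CDD-2728, a log2 difference of -0.48 ± 0.08, or 1.4-fold lower (edgeR, adjusted p = 0.000896). The groups did not overlap, and the call held without any one of the 4 libraries (adjusted p of at most 0.0186). THBS2 had 1178.8 and 1189.5 CPM with CDD-3013, against 1311.5 and 1407.1 CPM with CDD-2728, a log2 difference of -0.20 ± 0.08 (edgeR, adjusted p = 0.0477). That call was lost without the second CDD-2728 library (-0.15), without the first (-0.19) or second (-0.20) CDD-3013 library, in a fit of the 4 libraries compared (-0.21) and with length and GC offsets (-0.15). THBS1 differed by -0.11 (95% interval -0.28 to 0.06), and was called lower with CDD-3013 without the first CDD-2728 library (-0.23; 0.08 with length and GC offsets). The intervals were -0.14 to 0.21 for SPARC, -0.23 to 0.12 for POSTN, -0.44 to 0.37 for SPP1, -1.13 to 0.99 for SPON1 and -0.67 to 1.75 for SPON2, and the data do not separate the compounds within these bounds.

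**Figure D3:**
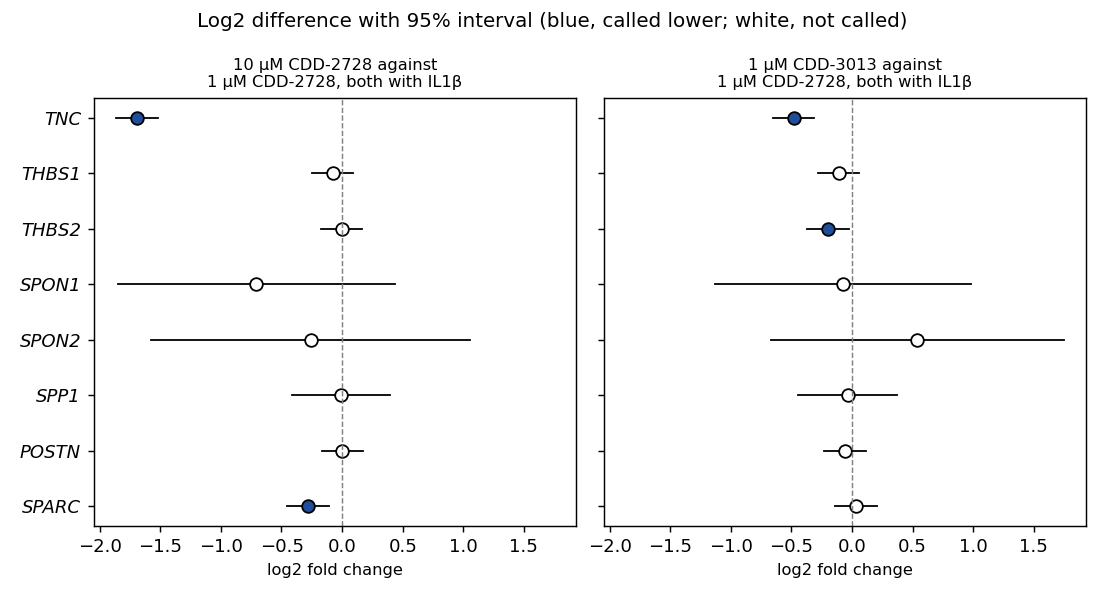
Log2 differences with 95% intervals between 10 and 1 µM CDD-2728 (left) and between CDD-3013 and CDD-2728 at 1 µM (right), all with IL1β; blue points were called lower and white not called. TNC is at -1.70 and -0.48, SPARC is called on the left only and THBS2 on the right only, and the intervals of SPON1 and SPON2 are the widest.

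Against vehicle, the inhibitor arms show which levels differed from those of cells without IL1β; they share the same 2 vehicle libraries. With 1 µM CDD-2728, 4 genes were higher and 2 lower, beside 34.8% of all tested genes called (18.3% higher and 16.6% lower). With 10 µM CDD-2728, 4 were higher and 4 lower, beside 34.7% (18.2% higher and 16.4% lower), and with CDD-3013, 3 were higher and 1 lower, beside 49.4% (26.0% higher and 23.4% lower). TNC was higher than vehicle in each arm, at log2 changes of 1.97 ± 0.08, 0.27 ± 0.09 and 1.48 ± 0.08 (edgeR, adjusted p = 5.87e-15, 0.0147 and 1.05e-12). At 10 µM its 87.0 and 102 CPM lay just above the 77.5 and 79.3 CPM of vehicle. That call was lost without the first vehicle library (0.26), without the second 10 µM library (0.15) and with library totals (0.15).

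THBS1 and SPP1 were higher than vehicle in all 3 arms. THBS1 was higher by 0.89 ± 0.08, 0.81 ± 0.08 and 0.78 ± 0.08 on the log2 scale (edgeR, adjusted p of at most 3.34e-08), and SPP1 by 1.69 ± 0.23, 1.68 ± 0.23 and 1.66 ± 0.23 (adjusted p of at most 2.8e-06). These calls held without any one library. THBS2 was higher with 1 and 10 µM CDD-2728, by 0.31 ± 0.08 at each dose (adjusted p = 0.000976 and 0.00107; 0.13 and not called at 1 µM with library totals), and its difference of 0.11 ± 0.08 with CDD-3013 was not called. That difference was -0.14 and not called with library totals, and 0.15 and called higher with length and GC offsets.

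POSTN was lower than vehicle in all 3 arms, with 132 and 124 CPM at 1 µM CDD-2728, 129 and 127 CPM at 10 µM CDD-2728 and 122 and 124 CPM with CDD-3013, against 156 and 141 CPM in vehicle. The log2 changes were -0.22 ± 0.08, -0.22 ± 0.08 and -0.27 ± 0.08 (edgeR, adjusted p = 0.018, 0.0191 and 0.00261). All 3 calls were lost without the first vehicle library (-0.13, -0.13 and -0.18), that at 1 µM also without the second library of its arm (-0.16) and in a fit of the 4 libraries compared (-0.21), that at 10 µM also without either library of its arm (-0.22 and -0.21), and that with CDD-3013 also with length and GC offsets (-0.11). SPARC was lower with 10 µM CDD-2728, with a log2 change of -0.26 ± 0.08 (edgeR, adjusted p = 0.00354). Its differences of 0.02 with 1 µM CDD-2728 and 0.05 with CDD-3013 were not called, but with library totals they were -0.17 and -0.20 and both were called lower (adjusted p = 0.0387 and 0.0121).

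By mean CPM, SPON1 was highest with IL1β alone (2.34 CPM) and SPON2 in vehicle (1.31 CPM). SPON1 was lower than vehicle with 10 µM CDD-2728, by -1.54 ± 0.50 (edgeR, adjusted p = 0.0145), a call lost without the first vehicle library (-1.09), without the second library of the arm (-1.30) and in DESeq2. It was called at 1 µM only without the second library of that arm (-1.53). SPON2 had 10 and 5 reads with 1 µM CDD-2728 and 6 and 7 with 10 µM CDD-2728, against 20 and 33 in vehicle. It fell by 1.54 and 1.80 on the log2 scale (edgeR, adjusted p = 0.0193 and 0.00827). Those calls were lost without the second vehicle library (-1.04 and -1.31), without the second library of the 1 µM arm (-1.18), without the first library of the 10 µM arm (-1.61) and in DESeq2. With CDD-3013, SPON1 had 12 and 11 reads, against 36 and 19 in vehicle, and SPON2 10 and 11, against 20 and 33. Neither was called, at log2 differences of -0.91 ± 0.46 and -1.0 ± 0.48 (edgeR, adjusted p = 0.0989 and 0.083). With library totals both were called lower (-1.16 and -1.25), as was SPON2 with length and GC offsets (-1.18). Without the first vehicle library these differences were -0.44 and -1.37, and without the second -1.22 and -0.50.

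**Figure D4:**
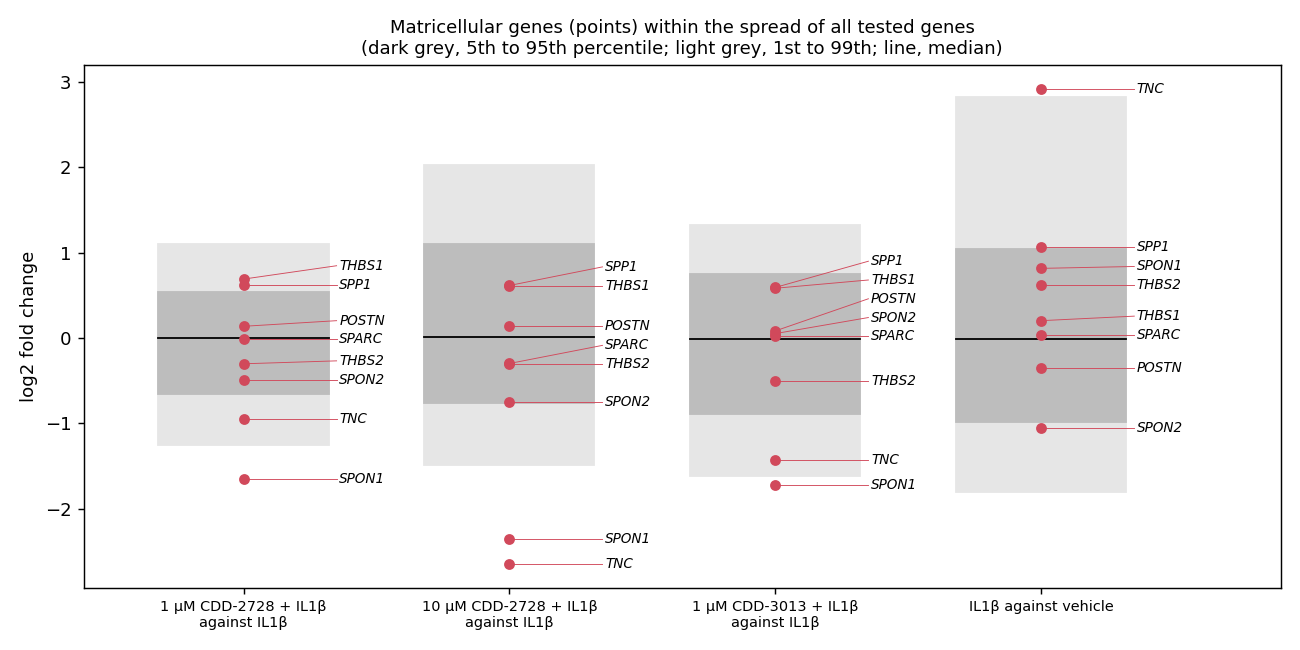
The 8 genes (points) within the log2 fold changes of all 15740 tested genes (dark grey, 5th to 95th percentile; light grey, 1st to 99th; line, median) in the inhibitor arms against IL1β and in IL1β against vehicle. With 10 µM CDD-2728, TNC at -2.65 and SPON1 at -2.36 lie below the 1st percentile of -1.48, and THBS1, at 0.61, lies within the dark band.

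Related genes were counted in 3 lists, also chosen with earlier results of these data known, so the counts are descriptions. Of 39 other matricellular genes, 27 were tested. With 1 µM CDD-2728, 1 was higher and 2 lower than with IL1β, with 10 µM 7 and 3, and with CDD-3013 10 and 5. Under IL1β, 5 were higher and 4 lower than in vehicle. Over all tested genes the share called was 4.59%, 31.5%, 36.4% and 32.6% in the same 4 comparisons. Their median log2 differences were 0.12, 0.19, 0.31 and 0.08, beside -0.00204, 0.00641, -0.00721 and -0.01 over all tested genes. CCN2, a TGF-β-induced matricellular protein, fell by 1.04 ± 0.10 on the log2 scale with IL1β and was higher by 0.72 ± 0.10 with 10 µM CDD-2728 than with IL1β (edgeR, adjusted p = 4.71e-09 and 3.84e-06). With 1 µM CDD-2728 and CDD-3013 its differences from IL1β were 0.20 ± 0.10 and 0.08 ± 0.10 and were not called.

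Of 29 receptor genes for these proteins, 22 were tested. With edgeR, 0 were higher and 6 lower with 1 µM CDD-2728 than with IL1β (1 higher at an unadjusted p under 0.05 and 0 by DESeq2), 2 and 9 with 10 µM CDD-2728, 2 and 10 with CDD-3013, and 13 were higher and 4 lower with IL1β than in vehicle. The share of all tested genes called was 4.59%, 31.5%, 36.4% and 32.6% in these comparisons. The median log2 differences of the receptor genes were -0.13, -0.16, -0.24 and 0.39, beside -0.00204, 0.00641, -0.00721 and -0.01 over all tested genes. The integrin subunit ITGB8, which takes part in TGF-β activation, averaged 97.6 CPM, 54.6 CPM and 65.0 CPM in the 3 arms, against 120.3 CPM with IL1β. Its log2 changes were -0.30 ± 0.09, -1.14 ± 0.09 and -0.89 ± 0.09 (edgeR, adjusted p = 0.0262, 3.34e-10 and 5.15e-08). CD44, the receptor for hyaluronan and osteopontin, averaged 830.4 CPM, 579 CPM and 742 CPM in the arms, against 1045.5 CPM with IL1β and 440.4 CPM in vehicle, and fell in each arm against IL1β by 0.33, 0.85 and 0.50 on the log2 scale (adjusted p of at most 0.0031). The adhesion molecule VCAM1 and the heparan sulphate proteoglycan SDC4 rose by 3.65 ± 0.09 and 2.70 ± 0.08 with IL1β (adjusted p = 2.63e-20 and 2.58e-18). Against IL1β, VCAM1 fell with 10 µM CDD-2728, with a log2 change of -0.64 ± 0.08 (edgeR, adjusted p = 3.94e-07), and SDC4 with one of -0.25 ± 0.08 (adjusted p = 0.0124). In the other arms VCAM1 differed by -0.11 and -0.18 and SDC4 by -0.02 and 0.04, and none of these was called.

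All 26 genes in a list of factors known to act on the promoters of these genes in other systems, or on the JNK to AP-1 route, were tested. With edgeR, 0 were higher and 7 lower with 1 µM CDD-2728 than with IL1β (1 higher at an unadjusted p under 0.05 and 0 by DESeq2), 8 and 11 with 10 µM CDD-2728, 3 and 13 with CDD-3013, and 16 were higher and 2 lower with IL1β than in vehicle. These stand beside 4.59%, 31.5%, 36.4% and 32.6% of all tested genes called. The median log2 differences of the 26 genes were -0.13, -0.15, -0.26 and 0.73, beside -0.00204, 0.00641, -0.00721 and -0.01 over all tested genes. JUN, itself a target of AP-1, averaged 167 CPM, 81.6 CPM and 128 CPM in the arms, against 316 CPM with IL1β and 139 CPM in vehicle. Its log2 changes against IL1β were -0.92 ± 0.08, -1.96 ± 0.08 and -1.31 ± 0.08 (edgeR, adjusted p = 1.37e-08, 3.88e-15 and 2.23e-11). TGFB2, a TGF-β ligand, averaged 21.4 CPM, 10.7 CPM and 16.7 CPM, against 35.4 CPM with IL1β, with log2 changes of -0.73 ± 0.12, -1.73 ± 0.13 and -1.08 ± 0.12 (adjusted p = 0.000145, 1.24e-10 and 3.29e-07).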

How the data were processed

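Poly(A) RNA of 12Z cells was sequenced in 5 groups of 2 libraries. Gene counts (whole reads per gene ID) are the values the authors deposited; fastp, STAR, featureCounts and the build hg38 are named per the submitters' processing notes, without versions, annotation or strand setting (not given in the sources used here). Symbols came from a reference list matched to 61918 IDs with version and 754 without it (78 unmatched), and coordinates and exon lengths (for RPKM) from GENCODE 29 on GRCh38. Deposited counts were filtered (filterByExpr, minimum count 10), scaled by TMM and fitted in edgeR 4.0.16 (robust quasi-likelihood, R 4.3.3), with 10 libraries in 1 fit, 9 comparisons and Benjamini-Hochberg adjustment over all tested genes. SEs are Wald values at the dispersion of the fit, which a gene's own estimate could raise but not lower. The p-values come from edgeR's test without that limit, so SEs and intervals can be wider than a p implies. The procedure was tested on simulated data. Alternatives were relative log expression factors, library totals, no filter, a filter at 5 CPM in 2 libraries, DESeq2 1.42.0, fits without the other groups, a replicate block and leaving out each library; offsets for transcript length and GC content were added after seeing the data. The members and lists were chosen with earlier results of these data known. Named are the 8 members, for each list and comparison up to 4 genes of smallest adjusted p (some also given in other comparisons), and the 3 genes most like a member. Some genes of these lists are not reported here by name.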

Additional observations from a re-analysis of the deposited data

Results flagged for a closer look

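In 4 cases the tested difference between doses or compounds passed the threshold. TNC was lower with 10 µM than with 1 µM CDD-2728, by a log2 difference of -1.70, and SPARC by -0.28; in both genes each 10 µM library was below each 1 µM library. TNC was lower with CDD-3013 than with CDD-2728 at 1 µM by -0.48, and THBS2 by -0.20, with both CDD-3013 libraries below both CDD-2728 libraries. The THBS2 call was close to the threshold (edgeR, adjusted p = 0.0477). It was lost without either CDD-3013 library or the second CDD-2728 library. A replicate block, a fit of only the libraries compared, and length and GC offsets also removed it. Groups of 2 libraries are too small to look for single libraries that stand apart.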

How the results depend on the processing

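Calls of TNC and THBS1 in the inhibitor arms against IL1β kept their direction and their side of the threshold under every alternative run. With library totals the median log2 difference of all tested genes moved from -0.01 to -0.18 in IL1β against vehicle, and to -0.21, -0.12 and -0.29 with 1 µM CDD-2728, 10 µM CDD-2728 and CDD-3013 against vehicle; the share of calls that were higher was then 25.5%, 23.0%, 33.8% and 24.6%, beside 54.0%, 52.4%, 52.6% and 52.6%. Differences that changed sign with library totals were those of SPARC in IL1β against vehicle (-0.14), of SPON2 and SPARC in CDD-3013 against IL1β (-0.030 and -0.063), of THBS2 and SPP1 between doses (0.069 and 0.061), of SPARC between compounds (-0.031), of SPARC in 1 µM CDD-2728 against vehicle (-0.17) and of THBS2 and SPARC in CDD-3013 against vehicle (-0.14 and -0.20), where 7 members were then called in place of 4. With library totals the higher share was 61.7% for 10 µM CDD-2728 and 39.2% for CDD-3013 against IL1β, 67.0% between doses and 34.5% between compounds, beside 49.5%, 52.3%, 49.1% and 55.1%. With length and GC offsets it was 38.6%, 62.4%, 32.2% and 73.8% for these 4 and 41.0% for 10 µM CDD-2728 against vehicle.

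Between doses POSTN (0.00275) turned to -0.00291 with relative log expression factors, -0.0103 with no filter, -0.00771 in DESeq2, -0.00212 in a fit of the libraries compared and -0.00853 with length and GC offsets; THBS2 and SPP1 turned to 0.026 and 0.019 with the stricter filter, and SPP1 to 0.043 with the offsets. The offsets also turned SPON2 in CDD-3013 against IL1β (-0.19) and THBS1 and POSTN between compounds (0.081 and 0.086), and the stricter filter SPARC in 1 µM CDD-2728 against vehicle (-0.00297). None of these differences had been called.

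No pairing by replicate number was seen in the correlations of deviations between groups (-0.114 to 0.055). Replicate 1 had more counts than replicate 2 in every group, and whether libraries of the same number shared a batch was not tested. A replicate block changed 1 call among the members, THBS2 between compounds (adjusted p = 0.0577), leaving 1 member called there in place of 2. Likewise 1 was called in a fit of the libraries compared (1818 genes called, in place of 2811) and with the offsets (545 genes).

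Leaving out 1 library gave 2 to 4 members and 224 to 1486 genes called in 1 µM CDD-2728 against IL1β (723 with all libraries), 3205 to 3604 genes with 10 µM (4958) and 3680 to 4801 with CDD-3013 (5723). Between doses it gave 2668 to 4030 genes (4262), between compounds 1 to 3 members and 656 to 3307 genes, and in 10 µM CDD-2728 against vehicle 5 to 7 members (8). Differences whose sign turned without a library were SPARC in 1 µM CDD-2728 against IL1β (-0.051 to 0.025) and against vehicle (-0.016 to 0.061), SPON2 in CDD-3013 against IL1β (-0.049 to 0.17), SPON2 (-0.62 to 0.25), THBS1 (-0.21 to 0.058), THBS2 (-0.055 to 0.041), SPP1 (-0.23 to 0.23) and POSTN (-0.049 to 0.049) between doses, and THBS1 (-0.23 to 0.030), SPON1 (-0.57 to 0.63), SPP1 (-0.25 to 0.21) and SPARC (-0.00165 to 0.075) between compounds. The lone library of a group was then assumed to vary like the others.

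SPON1 and SPON2 did not pass the stricter filter. DESeq2 lacked a result for some genes and comparisons, among them SPON1 in 1 µM CDD-2728 against IL1β, where it gave no adjusted p. Fits of only the libraries compared also lacked some results. At 5 to 41 reads a library SPON1 and SPON2 allow only large changes to be detected.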

Other observations

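The genes whose log2 CPM followed TNC most closely over the 10 libraries, among 11844 genes with a mean of at least 2 CPM, were the organic cation transporter SLC22A3 (Pearson r = 0.995), ANKLE2 (r = 0.986) and the kinase STK10 (r = 0.980). For THBS1 they were the arachidonate-releasing phospholipase PLA2G4A (r = 0.973), the lysophosphatidic acid receptor LPAR1 (r = 0.952) and the proton pump subunit ATP6V1B2 (r = 0.946). For THBS2 they were FMNL2, ATP13A3 and PTPRJ (r = 0.988, 0.976 and 0.976), for SPARC HSPA14, PMPCB and RDH11 (r = 0.984, 0.977 and 0.975), for SPP1 TSPYL2, C4B and CASP10 (r = 0.976, 0.976 and 0.974) and for POSTN NFYB, SAMD12 and DPY19L2P3 (r = 0.926, 0.924 and 0.923). At their low counts, SPON1 was followed by GABBR1, C3orf52 and SRGAP2 (r = 0.973, 0.943 and 0.941) and SPON2 by ADCYAP1, PCTP and ST3GAL5 (r = 0.934, 0.934 and 0.927). C4B has a near-identical paralog, so its counts are uncertain. These are descriptions over libraries that share 5 groups and depth, with no p.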
